A study of Mus musculus with 16 samples.

Results

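The cytosolic ribosomal protein genes encode the protein part of the ribosome that translates nuclear mRNA. They were taken here as every gene symbol that begins with Rpl or Rps followed by a number, with an optional closing letter a, x, y or l and digits, together with Rplp0, Rplp1, Rplp2 and Rpsa, and with a mean of at least 5 counts in each 1000000 (CPM) over all 16 libraries. Of 56980 genes in the count table, 89 symbols matched and 87 reached that level, 36 of the small subunit and 51 of the large subunit. The lowest genes inside the limit were Rps4l at 5.65 CPM and Rpl39l at 6.78 CPM, and the genes outside it were Rpl10l at 0.83 CPM and Rpl3l at 0.23 CPM. The rule used the level over all libraries and no difference between groups.

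The libraries came from primary mouse microglia, grown out of the cortex and hippocampus of neonatal mice as mixed glial cultures and detached by shaking, with no sort named. The cells were wild type (WT) or Grn KO, which lack progranulin, a secreted protein that is carried to lysosomes. Each genotype received 2 uM rimeporide, an inhibitor of the sodium-proton exchanger NHE1, or the vehicle DMSO, for 72 h. The 4 groups held 4 libraries each, so the design asks what the loss of Grn changes in either medium, what rimeporide changes in either genotype, and whether those changes depend on each other. Strain, sex and the knockout allele were not given in the sources read.

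The 3' end of polyadenylated RNA was counted, so 1 CPM is 1 tag in 1000000 and is not divided by transcript length. Library totals ran from 3666413 to 7929499 counts. The highest were those of replicates 1, 3 and 4 of KO with DMSO, at 7929499, 6659436 and 6660582 counts. Replicate 2 of that group had 4422263, and the highest total outside the group was 5966784. The part of depth in the differences below was not tested. The targeted gene, Grn, averaged 1729 ± 114 CPM in DMSO-treated WT libraries (SD, n = 4) and 12.7 ± 1.80 CPM in the KO libraries of the same medium. With rimeporide the averages were 1607 ± 27.8 and 17.4 ± 5.06 CPM, so Grn was low in every KO library. All 9 microglial markers were detected in the series. They summed to between 2263 and 2640 CPM in the WT libraries and between 2035 and 2356 CPM in the KO libraries. In KO, 2 of the 9 fell with DMSO and 4 with rimeporide, where 8.56% and 2.32% of all genes tested fell. The 8 astrocyte markers summed to between 14.1 and 29.7 CPM in the WT libraries and between 68.4 and 101 CPM in the KO libraries, and the 8 neuronal markers to between 7.28 and 13.4 CPM in WT and between 44.0 and 80.7 CPM in KO. With DMSO, 6 of the 8 astrocyte markers and all 4 neuronal markers tested rose in KO, where 10.1% of all genes tested rose. The 8 oligodendrocyte lineage markers summed to between 37.3 and 95.1 CPM in WT and between 53.8 and 71.5 CPM in KO, and of the 6 tested 3 rose and 1 fell in KO with DMSO. The 8 fibroblast, endothelial and mural markers summed to between 7.76 and 34.9 CPM in WT and between 5.81 and 14.5 CPM in KO. No marker of these lists was at 0 in all 16 libraries, and detection within each group was not examined. The part of these other cells in the genotype differences below was not tested. Since the RNA is from bulk cultures, a lower number of cells of a type and less RNA per cell cannot be told apart.

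Ribosomal proteins are made in near-equal amounts and are assembled with ribosomal RNA in the nucleolus. Their mRNAs are among the most abundant in a growing cell. Most begin with a stretch of pyrimidines, the 5' terminal oligopyrimidine (TOP) motif, through which the kinase mTORC1, acting at the lysosomal surface, and the RNA-binding protein LARP1 regulate their translation and stability. The same genes have left many processed pseudogenes in the mouse genome, copies made from mRNA whose sequence can be close to that of the parent gene.

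The starts of 7 genes that recur in the results below are shown for the pyrimidine runs of TOP mRNAs, and 8 annotated starts were read because Rpl22 has a pair of them. Each line gives 60 bases of the gene strand, 5' to 3', with 40 bases before and 20 bases from the annotated start, from RefSeq on GRCm38.p6. Capitals mark CTTTCC or CTTTTCC, the letters searched as a TOP-like run on the gene strand. Rpl22 (at 1 of its starts), Rps12, Rpl13a and Rps27 held them within the bases shown. In Rpl22 the match lay before the annotated start, outside the annotated transcript, and in Rps12, Rpl13a and Rps27 it lay after the start. Rpl10 held CTTTTCC only beyond the bases shown, within the span from 50 bases before to 50 bases after its start. Rps28 and Rpl22l1, the paralog of Rpl22, held neither. Rpl22l1 nevertheless has a run of 10 pyrimidines next to its start.
Rpl22, chr4:152325686-152325745, plus strand: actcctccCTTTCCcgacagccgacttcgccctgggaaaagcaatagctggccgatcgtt
Rpl22, the other annotated start, chr4:152324396-152324455, plus strand: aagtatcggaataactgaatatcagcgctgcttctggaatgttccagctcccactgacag
Rpl22l1, chr3:28805468-28805527, plus strand: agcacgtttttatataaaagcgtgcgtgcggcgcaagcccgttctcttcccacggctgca
Rps12, chr10:23787190-23787249, minus strand: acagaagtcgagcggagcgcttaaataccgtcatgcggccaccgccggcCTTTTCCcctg
Rpl13a, chr7:45128726-45128785, minus strand: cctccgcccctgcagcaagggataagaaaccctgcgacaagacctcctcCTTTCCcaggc
Rps27, chr3:90213629-90213688, minus strand: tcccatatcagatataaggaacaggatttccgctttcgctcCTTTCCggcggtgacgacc
Rpl10, chrX:74270776-74270835, plus strand: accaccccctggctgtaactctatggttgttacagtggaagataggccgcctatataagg
Rps28, chr17:33824543-33824602, minus strand: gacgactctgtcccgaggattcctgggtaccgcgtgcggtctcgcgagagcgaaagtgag
CTTTCC occurred in 5.43% and CTTTTCC in 1.48% of all 27025 genes of the promoter table, with a match at any annotated start counted. The search ran from 50 bases before to 50 bases after each start. The table matched 62 of the 87 members, under 80%, so no share over the members is given. A match is only a run of letters and does not show a working motif.

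By summed level, the 87 genes held 6.66, 6.57, 6.67 and 6.07% of all counts in the 4 libraries of WT with DMSO. In KO with DMSO they held 6.25, 6.02, 5.91 and 5.34%. In WT with rimeporide the shares were 6.76, 6.48, 7.01 and 6.20%, and in KO with rimeporide they were 6.53, 6.49, 6.99 and 6.18%. The mean share was 5.88 ± 0.390% in KO with DMSO and between 6.49 ± 0.286% and 6.61 ± 0.349% in the other 3 groups (SD, n = 4). KO with DMSO was thus lowest on average, yet its replicate 1 lay within the range of the other groups, and replicate 4 was the lowest library of each group. The small and the large subunit moved alike, at 2.97 ± 0.174% and 2.91 ± 0.223% in KO with DMSO against 3.27 ± 0.114% and 3.23 ± 0.173% in WT with DMSO. Of the 87 genes, 60 had their lowest level of all 16 libraries in replicate 4 of KO with DMSO.

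**Figure D1:**
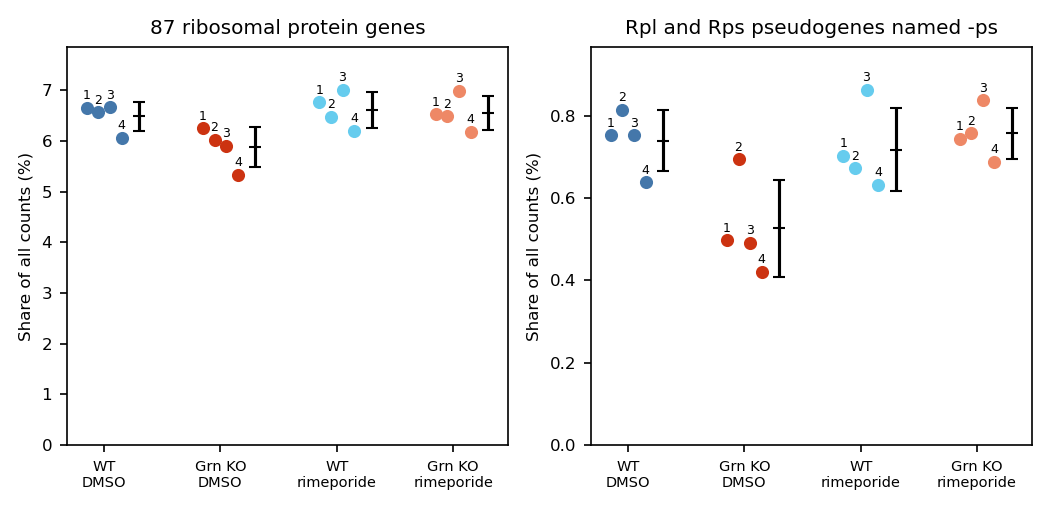
Share of all counts (%, vertical axes) held by the 87 ribosomal protein genes (left) and by the Rpl and Rps pseudogenes named -ps (right), for each of 16 libraries in 4 groups. Points are libraries marked with their replicate number and bars are the mean ± SD of 4 libraries. In KO with DMSO the left-hand shares ran from 5.34 to 6.25% and the right-hand shares from 0.421 to 0.694%.

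The highest levels, as means over all libraries, were those of Rps27a, a fusion of ubiquitin and a small-subunit protein, at 3223 CPM, Rps12 at 2986, Rps23 of the decoding centre at 2301, Rps14 at 2184 and Rps29 of the small-subunit head at 1996 CPM. Besides Rps4l and Rpl39l, the lowest were Rpl32l at 16.4, Rps3a3 at 28.8 and Rpl7l1 at 29.2 CPM. Tags near the 3' end are counted once per transcript in principle, but these levels also depend on how tags were shared among near-identical copies. Of the members, 6 low ones (Rps4l, Rps12l1, Rpl32l, Rpl6l, Rps3a3 and Rps3a2) are processed pseudogenes in the GENCODE M21 annotation.

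**Figure D2:**
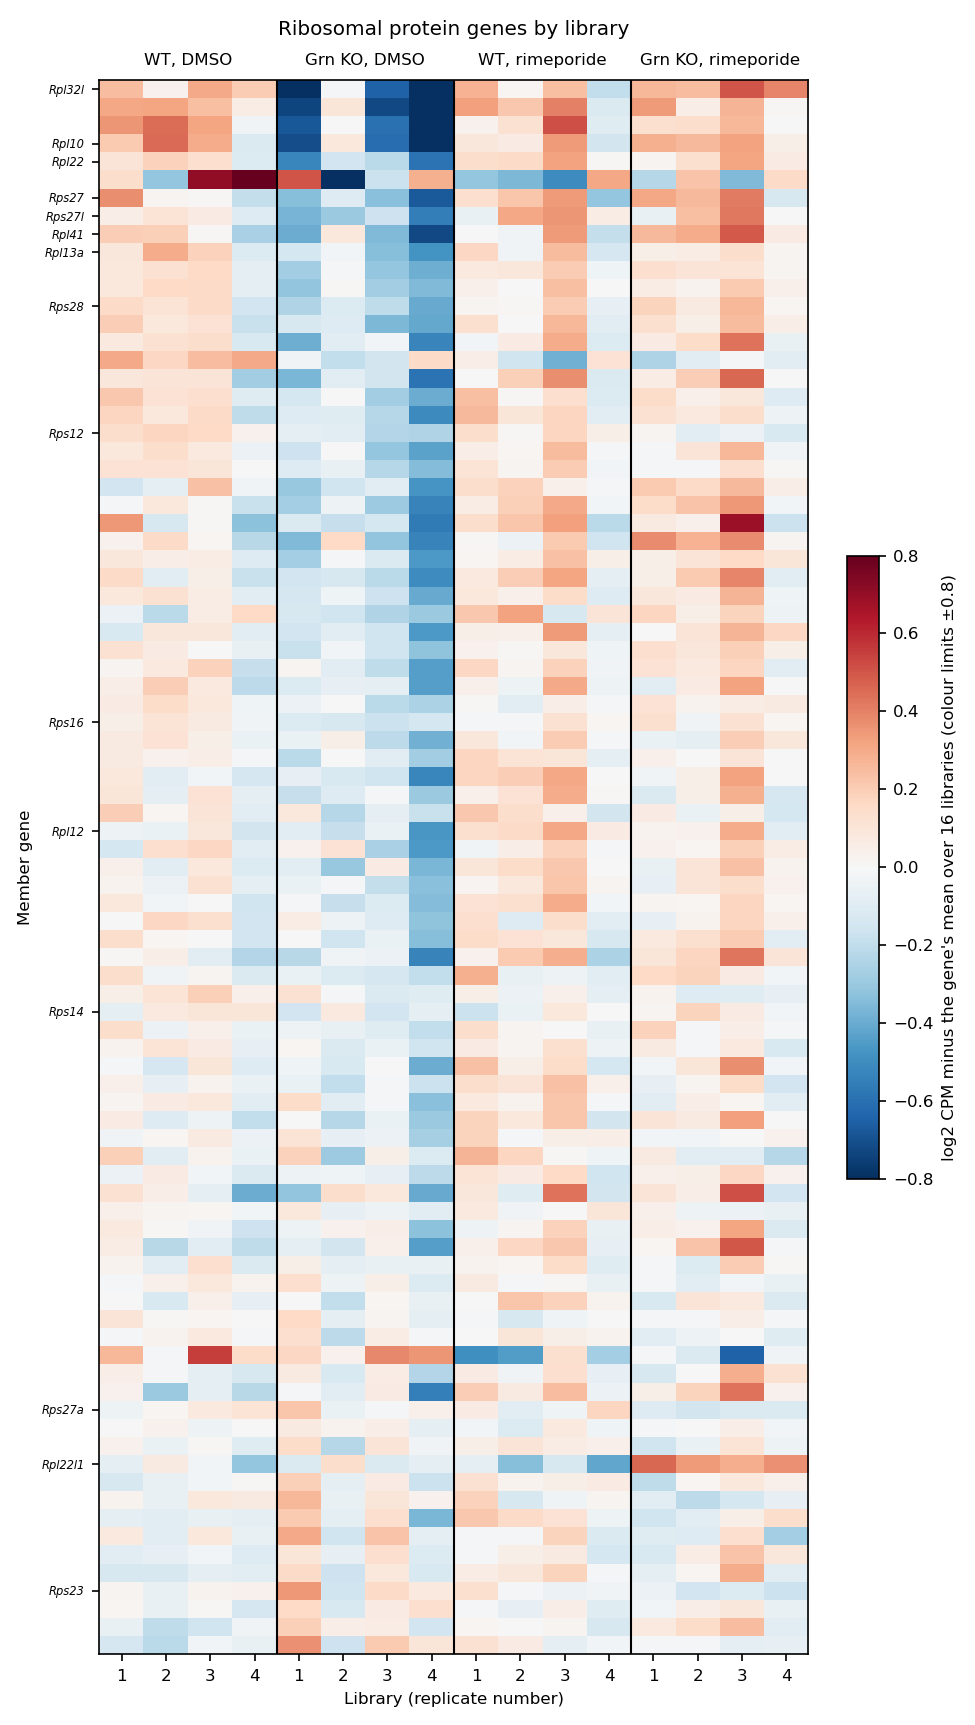
Level of each of the 87 genes (rows, some of them named, ordered by their log2 fold change between KO and WT in DMSO) in each of 16 libraries (columns, by group and replicate number). Colour is the log2 CPM minus the gene's mean over all libraries, with blue for lower and red for higher. The columns of KO with DMSO are blue over most of the upper rows, most deeply in replicate 4.

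In DMSO, 19 of the 87 genes fell in Grn KO and none rose, where 8.56% of all genes tested fell and 10.1% rose. The genes that fell came from both subunits, 9 of 36 small-subunit and 10 of 51 large-subunit genes, and the changes were modest, with a median over all 87 of -0.16 on the log2 scale against 0.01 over all genes tested. A gene is said to rise or fall where edgeR's quasi-likelihood test gave a Benjamini-Hochberg adjusted p under 0.05 over 12272 genes. Changes are log2 fold changes ± the standard error. Of the 87, 73 had a negative change, and in 8 all KO libraries lay below all WT libraries, which held for 6.80% of all genes tested.

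Rpl22, an RNA-binding protein of the large subunit, read 514, 543, 526 and 443 CPM in the WT libraries and 333, 431, 411 and 317 CPM in the KO libraries with DMSO. Every KO library lay below every WT library. Rpl22 fell by 0.45 ± 0.10 (adjusted p = 0.00267, edgeR), to 373 ± 56.3 from 506 ± 43.9 CPM (SD, n = 4). No other annotated transcript shared a 75-base stretch with the last 300 bases of Rpl22, so its tags were not open to sharing by that measure.

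Rpl10, a late-joining protein of the large subunit, read 1174, 1389.7, 1243 and 935 CPM in WT and 619.6, 1074, 665 and 553 CPM in KO with DMSO. Replicate 2 of KO overlapped the WT range and the other 3 lay well below it. Rpl10 fell by 0.71 ± 0.15 (adjusted p = 0.00222). All 75-base windows of its 3' end occurred in other annotated transcripts, 10 other genes in all, and its 6 pseudogenes named -ps were credited with 55.7% of the joint counts. With their counts added, the fall was 0.45 ± 0.10 (adjusted p = 0.00235).

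Rps12, a protein of the small-subunit beak, read 3272, 3349, 3318 and 3040.2 CPM in WT and 2822, 2794, 2523 and 2516 CPM in KO with DMSO. The groups did not overlap, and Rps12 fell by 0.29 ± 0.06 (adjusted p = 0.00276). Of the 75-base windows in its 3' end, 93.8% occurred in other annotated transcripts, of 22 other genes. With the counts of its -ps pseudogenes added, the change was -0.40 ± 0.08 (adjusted p = 0.000887). Rps13, of the small-subunit body, read 1329.6, 1363, 1401 and 1195 CPM in WT and 1033, 1243, 1012 and 958 CPM in KO. Replicate 2 of KO lay above replicate 4 of WT, and Rps13 fell by 0.32 ± 0.08 (adjusted p = 0.00671). Rps28, which lies near the mRNA exit, read 1439, 1396, 1442 and 1164 CPM in WT and 1097, 1202, 1126 and 979 CPM in KO and fell by 0.31 ± 0.08 (adjusted p = 0.0109). Its replicate 2 of KO also lay above replicate 4 of WT.

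Rpl30 read 1275, 1275, 1258 and 1176 CPM in WT and 1096, 1129, 1005 and 926 CPM in KO, with no overlap. It fell by 0.27 ± 0.07 (adjusted p = 0.011). Of the windows in its 3' end, 77.9% occurred in other annotated transcripts, of 11 other genes. With the counts of its -ps pseudogenes added, the change was -0.36 ± 0.08 (adjusted p = 0.00406). Rpl13a, which in human myeloid cells is also known to leave the ribosome and silence inflammatory mRNAs, read 1132, 1309, 1208 and 988 CPM in WT and 965, 1048, 840.2 and 766 CPM in KO. It fell by 0.36 ± 0.10 (adjusted p = 0.0123), although replicate 2 of KO lay above replicate 4 of WT. Among the others that fell were the paralogs Rps27, by 0.42 ± 0.14 (adjusted p = 0.0312), and Rps27l, a p53 target in human cells, by 0.38 ± 0.11 (adjusted p = 0.0165). For Rps27, replicate 2 of KO, at 700 CPM, lay above replicate 4 of WT, at 657 CPM. Of the windows in the 3' end of Rps27, 100% occurred in other annotated transcripts, of 4 other genes.

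Further genes that fell are named here outside the rule for named genes. Rpl35a fell by 0.31 ± 0.09 (adjusted p = 0.0184), Rpl37 by 0.30 ± 0.09 (adjusted p = 0.022) and Rpl38, which in mice is needed for translation of Hox mRNAs, by 0.29 ± 0.09 (adjusted p = 0.0317). In these 3 genes replicate 2 of KO lay above replicate 4 of WT, as did replicate 1 of KO in Rpl35a and Rpl38. Rps18 fell by 0.29 ± 0.09 (adjusted p = 0.0277) and Rpl27 by 0.21 ± 0.07 (adjusted p = 0.0399), again with replicate 2 of KO above replicate 4 of WT in both. Rps16, which read 952, 996, 971 and 906 CPM in WT and 855, 844, 818 and 835 CPM in KO with no overlap, had the smallest of the 19 changes and fell by 0.20 ± 0.06 (adjusted p = 0.0352).

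The largest falls were those of low copies. Rps12l1 read 122, 130.4, 119 and 93.8 CPM in WT and 59.8, 95.9, 63.2 and 50.7 CPM in KO and fell by 0.80 ± 0.15 (adjusted p = 0.000787). Rpl6l read 69.6, 69.8, 66.3 and 58.6 CPM in WT and 33.8, 59.9, 34.1 and 26.4 CPM in KO and fell by 0.80 ± 0.17 (adjusted p = 0.00199). Rpl32l read 18.6, 16.1, 19.4 and 18.1 CPM in WT and 8.32, 15.6, 10.1 and 8.11 CPM in KO and fell by 0.82 ± 0.18 (adjusted p = 0.0023). In all 3, replicate 2 of KO was far above the other KO libraries. All 3 are among the 6 members annotated as processed pseudogenes, and whether their tags came from the parent genes was not tested. Of the 81 members annotated as protein-coding, 16 fell.

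Many ribosomal protein genes did not pass. The stalk genes Rplp0, Rplp1 and Rplp2, whose products recruit translation factors, changed by -0.10 ± 0.07, -0.03 ± 0.07 and -0.12 ± 0.07, and none passed (adjusted p = 0.368, 0.839 and 0.234). Rpl5 and Rpl11, which with 5S RNA can bind Mdm2 and stabilise p53, changed by -0.07 ± 0.07 and -0.09 ± 0.08 (adjusted p = 0.537 and 0.505). Rps6, the substrate of S6 kinase downstream of mTORC1, changed by 0.08 ± 0.08 (adjusted p = 0.562), Rps3, at the mRNA entry channel, by -0.03 ± 0.07 (adjusted p = 0.783), and Rps27a by 0.00 ± 0.07 (adjusted p = 0.978). Rpsa, also known as the laminin receptor, read 291 ± 21.5 CPM in WT and 259.7 ± 21.5 CPM in KO and did not pass (adjusted p = 0.214). By place in the ribosome, 5 of 14 genes of the small-subunit head fell, 1 of 9 around the peptide exit tunnel, 0 of 3 of the stalk and 0 of 2 of the 5S particle, with these sets not tested against each other.

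The count of 19 rested in part on single libraries. It was 33 without replicate 2 of KO with DMSO, 9 without replicate 4 of that group, and 12 without either replicate 2 or replicate 3 of WT with DMSO. With the mean level of 177 pseudogenes named -ps as a covariate, 2 genes fell and 1 rose.

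**Figure D3:**
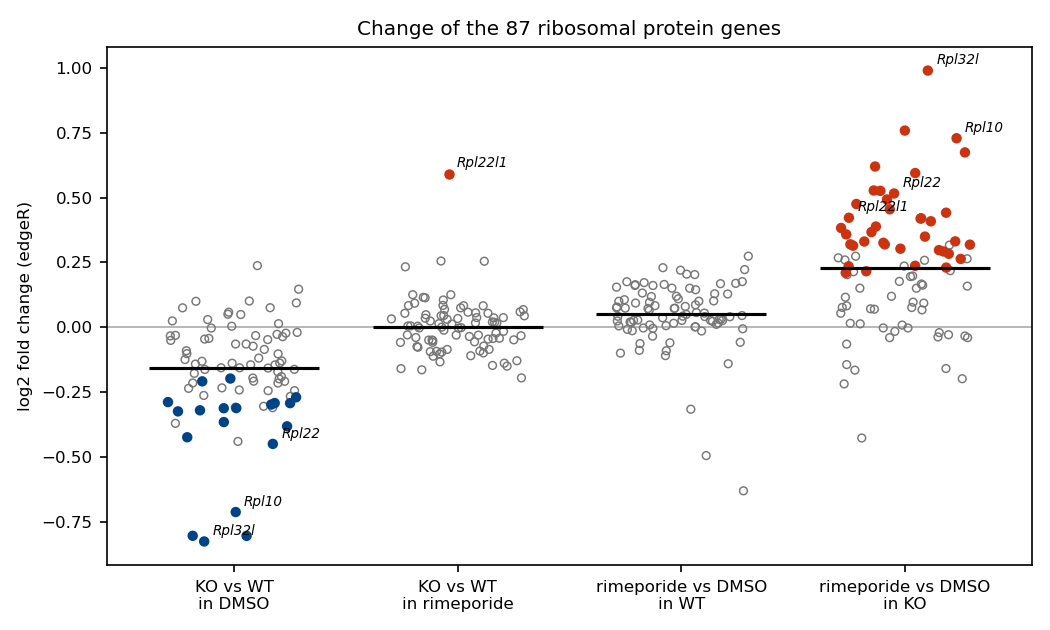
Log2 fold change (vertical axis) of the 87 genes in 4 comparisons, with filled points, some of them named, for genes that rose (red) or fell (blue) at an adjusted p under 0.05, open points for the others and a line at the median. The medians were -0.16, 0.00, 0.05 and 0.23 from left to right.

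Rimeporide in KO cells went with higher levels. Of the 87 genes, 39 rose and none fell, where 8.43% of all genes tested rose and 6.35% fell. The risers were 15 of 36 genes of the small and 24 of 51 of the large subunit. The median change was 0.23 on the log2 scale, a factor of 1.17, against -0.01 over all genes tested. In 35 of the 87 all rimeporide libraries lay above all DMSO libraries, which held for 6.72% of all genes tested. These values share the 4 libraries of KO with DMSO with the comparison of KO and WT above, so the 2 comparisons are not independent and a low level in those libraries enters both.

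Rpl22 read 485, 523, 596 and 501 CPM in KO with rimeporide, all above the 4 KO libraries with DMSO. It rose by 0.52 ± 0.10 (adjusted p = 0.00377). Rpl10 read 1234, 1215, 1269 and 1047 CPM and rose by 0.73 ± 0.15 (adjusted p = 0.00497), although replicate 4 lay just below replicate 2 of KO with DMSO. With its pseudogenes' counts added the rise was 0.41 ± 0.10 (adjusted p = 0.0097). Rpl32l read 18.9, 18.7, 22.3 and 20.6 CPM, all above the DMSO libraries, and rose by 0.99 ± 0.18 (adjusted p = 0.00369). Rpl6l read 71.2, 58.1, 67.9 and 56.5 CPM and rose by 0.76 ± 0.17 (adjusted p = 0.00685), with replicates 2 and 4 below replicate 2 of the DMSO group.

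Rps28 read 1466, 1360.2, 1558 and 1312 CPM in KO with rimeporide, above all 4 KO libraries with DMSO, and rose by 0.39 ± 0.08 (adjusted p = 0.00527). Rpl41, the smallest ribosomal protein, read 717, 1001, 739.9 and 572 CPM with DMSO and 1128, 1159, 1324 and 987 CPM with rimeporide and rose by 0.62 ± 0.14 (adjusted p = 0.0059). For Rpl41, replicate 4 with rimeporide lay just below replicate 2 with DMSO. Rps27 rose from 593, 699.9, 597 and 471 CPM to 929.6, 901, 1001 and 687 CPM, by 0.59 ± 0.14 (adjusted p = 0.00694), again with replicate 4 just below replicate 2 of the DMSO group. Its paralog Rps27l rose from 236, 248, 272 and 208 CPM to 293, 361, 409 and 306 CPM, by 0.53 ± 0.11 (adjusted p = 0.00466), with no overlap.

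Other genes did not pass with rimeporide in KO. The stalk genes changed by 0.12 ± 0.07 (Rplp0), -0.04 ± 0.07 (Rplp1) and 0.10 ± 0.07 (Rplp2), and none passed (adjusted p = 0.308, 0.752 and 0.357). Rpl5 and Rpl11 changed by 0.08 ± 0.07 and 0.05 ± 0.08 (adjusted p = 0.519 and 0.717). Rps23 read 2918, 2053, 2545 and 2418 CPM with DMSO and 2218, 2059.5, 2128 and 2030.1 CPM with rimeporide, a change of -0.22 ± 0.08 (adjusted p = 0.0588). Rps27a, the most abundant, changed by -0.16 ± 0.07 (adjusted p = 0.136). By place, 8 of 14 small-subunit head genes and 4 of 9 tunnel genes rose. The count of 39 was 16 without replicate 4 of KO with DMSO and 16 without replicate 3 of KO with rimeporide, and 0 with the mean level of the -ps pseudogenes as a covariate.

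In rimeporide, the genotypes differed in 1 gene. Rpl22l1, the paralog of Rpl22, read 237, 198, 229 and 187 CPM in WT and 345, 317, 307 and 322 CPM in KO with rimeporide. All KO libraries lay above all WT libraries, and Rpl22l1 rose by 0.59 ± 0.09 (adjusted p = 0.000114), a factor of 1.51. With DMSO it read 239, 263, 247 and 202 CPM in WT and 231, 275, 231 and 238 CPM in KO, a difference of 0.03 ± 0.09 (adjusted p = 0.866). In mice, Rpl22 protein has been reported to lower Rpl22l1 mRNA. Rpl22 itself was at 535 ± 48.0 CPM in WT and 526 ± 49.1 CPM in KO with rimeporide and did not pass there (adjusted p = 0.923). Of the windows in the 3' end of Rpl22l1, 58.8% occurred in other annotated transcripts, of 2 other genes.

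No other ribosomal protein gene passed between genotypes in rimeporide, where 5.14% of all genes tested rose and 2.32% fell. The median change of the 87 was 0.00, with 44 positive and 43 negative. The next smallest p-values were those of Rps12, at -0.16 ± 0.06 (adjusted p = 0.17), and Rps27a, at -0.16 ± 0.07 (adjusted p = 0.207). Summed astrocyte and neuronal markers were higher in KO in both media, with summed astrocyte markers of 68.4 to 88.8 CPM in KO and 16.9 to 29.7 CPM in WT with rimeporide. By gene, 6 of the 8 astrocyte markers and 3 of the 4 neuronal markers tested rose in KO with rimeporide. Averaged over both media, 6 astrocyte markers rose and 1 fell.

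In WT cells, rimeporide changed no ribosomal protein gene by the edgeR test, as was so for all 12272 genes (0% called). At an unadjusted p under 0.05 there were 12 of the 87, against 5.51% of all genes tested, and DESeq2 called none of the 87. The median change was 0.05, with 69 of 87 positive. The smallest p-values belonged to Rpl7l1, at -0.32 ± 0.12 (adjusted p = 0.814), Rpl21, at 0.27 ± 0.11 (adjusted p = 0.819), and Rpl26, near the exit tunnel, at 0.23 ± 0.09 (adjusted p = 0.819). Rpl21 read 294, 233, 272 and 246 CPM with DMSO and 328, 301, 341 and 278 CPM with rimeporide in WT, so the groups overlapped.

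Whether the response to rimeporide differed between genotypes was tested directly as an interaction. None of the 87 passed by edgeR, and 2 of 12272 genes did (0.0163%). At an unadjusted p under 0.05 there were 28 of the 87, against 18.6% of all genes tested, and DESeq2 called 3 of the 87. The median interaction of the 87 was 0.14 against -0.01 over all genes tested. The smallest p-values belonged to Rpl32l, at 1.08 ± 0.25, Rpl22l1, at 0.56 ± 0.13, and Rpl10, at 0.84 ± 0.22, each with an adjusted p of 0.0952. Without replicate 2 of KO with DMSO the interaction passed for 20 of the 87, and without replicate 3 of WT with rimeporide for 5. With the replicate number as a block in the fit, the interaction passed for some of the 87, as counted in the closing sections. Whether the interaction passed thus depended on the libraries and the fit used.

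**Figure D4:**
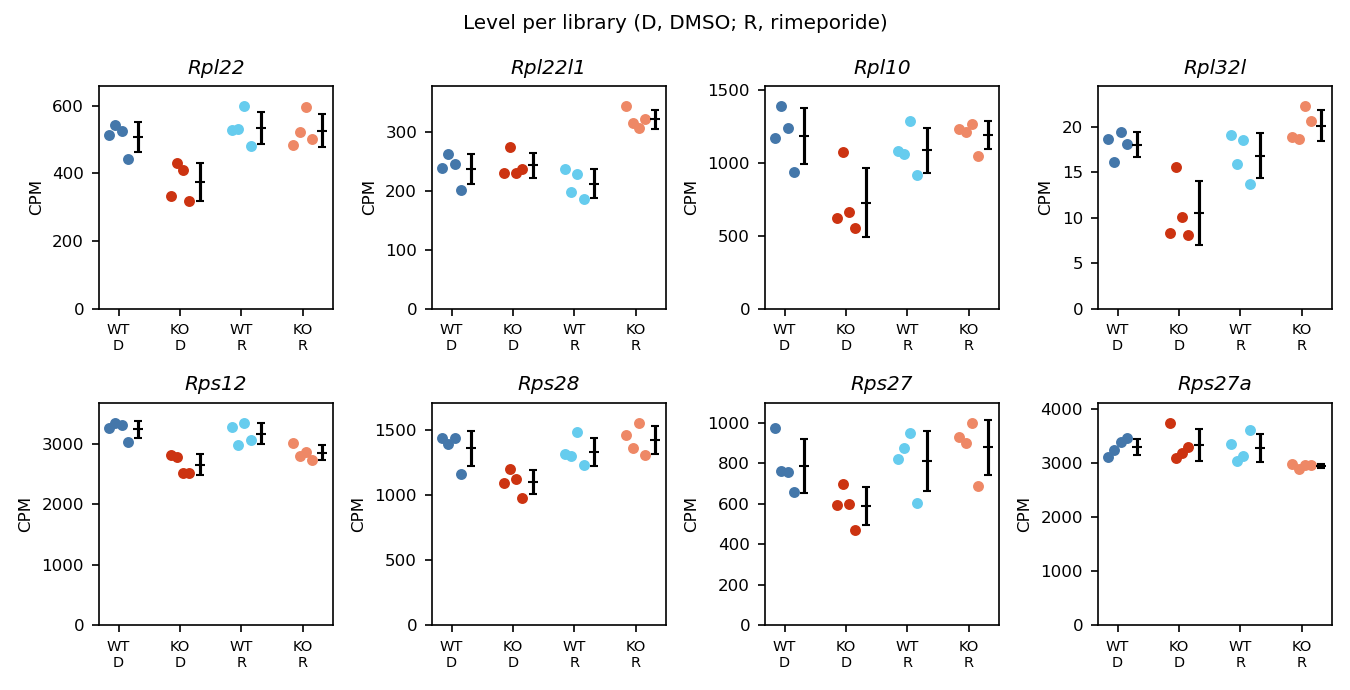
Level in CPM (vertical axes, from 0) of 8 ribosomal protein genes in each of 16 libraries, with D for DMSO and R for rimeporide. Points are libraries and bars are the mean ± SD of 4 libraries. Rpl22 is lowest in KO with DMSO, whereas Rpl22l1 is highest in KO with rimeporide, between 307 and 345 CPM.

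Averaged over both media, 5 of the 87 fell in KO and 1 rose, where 5.80% of all genes tested fell and 9.84% rose. Rps12 fell by 0.23 ± 0.05 (adjusted p = 0.000926), Rps12l1 by 0.42 ± 0.11 (adjusted p = 0.00929), Rpl6l by 0.43 ± 0.12 (adjusted p = 0.0158), Rpl22 by 0.24 ± 0.07 (adjusted p = 0.0201) and Rpl30 by 0.16 ± 0.05 (adjusted p = 0.0295). Rpl22l1 rose by 0.31 ± 0.07 (adjusted p = 0.00128). The falls are a share of the 87 near that over all genes. Without replicate 2 of KO with DMSO the count was 19, and it was 11 without replicate 4 of either WT group.

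Averaged over both genotypes, 15 of the 87 rose with rimeporide and none fell, where 2.03% of all genes tested rose and 1.63% fell. With the replicate number as a block in the fit, more of the 87 passed, as counted in the closing sections. Among the risers were Rps27l, at 0.34 ± 0.08 (adjusted p = 0.0279) and Rpl22, at 0.31 ± 0.07 (adjusted p = 0.0279). Rpl26, Rpl34, Rpl12 of the stalk base, Rpl21, Rpl13, Rpl31 and Rps25 also rose, with changes between 0.21 and 0.30. Rpl12 read 390.2 to 460.4 CPM in WT and 313 to 416 CPM in KO with DMSO, and 452 to 534 CPM and 408 to 532 CPM with rimeporide. The count of 15 depended on single libraries and ran from 0 to 36 on leaving out each. It was 0 on leaving out any of replicates 1 and 4 of KO with DMSO, 2 and 3 of KO with rimeporide, 4 of WT with DMSO, and 2 and 3 of WT with rimeporide.

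The 87 genes varied together between libraries of a group, as a description over 16 libraries that share their scaling and depth. With each gene centred within its group, the correlation of a gene's log2 CPM with the mean of the other members had a median of 0.70 and was over 0.5 for 61 of the 87. It was highest for Rpl15 (0.94), Rpl26 (0.92) and Rpl12 (0.92). It was negative for 8 of the 87, most so for Rpl7l1 (-0.65), for Rpl39l (-0.57), the paralog of Rpl39 best known from testis, and for Rps27a (-0.32). In Rps3a1, Rpl23, Rps4l, Rps3a3 and Rps23 it lay between -0.16 and -0.08. Rps27a, at 3754, 3095, 3191 and 3308 CPM in KO with DMSO, was thus not low in the library where most of the others were lowest. Spread between replicates was widest in KO with DMSO, where the median coefficient of variation over the 87 genes was 11.1%, against 6.84% in WT with DMSO, 8.25% in WT with rimeporide and 7.79% in KO with rimeporide.

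Among the lowest members, Rpl39l read 7.07, 5.18, 10.5 and 12.2 CPM in WT and 9.08, 3.17, 5.71 and 7.81 CPM in KO with DMSO, and Rps4l read 6.64, 5.45, 8.08 and 6.10 and 6.18, 5.65, 7.21 and 7.06 CPM. Both pairs of groups overlapped widely and neither gene passed (adjusted p = 0.309 and 0.964). Rpl7l1 read 35.8, 32.5, 34.4 and 35.7 CPM in WT and 28.4, 25.3, 26.1 and 32.3 CPM in KO with DMSO, a change of -0.31 ± 0.12 (adjusted p = 0.08). Rps3a3 ran from 24.5 to 31.9 CPM in WT and from 23.3 to 26.1 CPM in KO with DMSO, with overlap, and did not pass (adjusted p = 0.231). At the other end, Rps14 ran from 1961 to 2297 CPM and Rps29 from 1621 to 2259 CPM in KO with DMSO, against 2066 to 2331 and 1873 to 2266 CPM in WT, and neither passed (adjusted p = 0.269 and 0.68).

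Ribosomal protein pseudogenes were also lowest in KO with DMSO. The 322 pseudogenes named -ps held 0.753, 0.815, 0.754 and 0.638% of counts in WT with DMSO and 0.498, 0.694, 0.492 and 0.421% in KO with DMSO. With rimeporide the shares were 0.703, 0.674, 0.864 and 0.632% in WT and 0.745, 0.759, 0.838 and 0.689% in KO. Replicates 1, 3 and 4 of KO with DMSO were below all other libraries, and replicate 2 was not. Replicates 1, 3 and 4 of that group also had the highest total counts of all libraries, so group and depth go together here. The fall from 0.740 ± 0.0738% to 0.526 ± 0.117% was larger in proportion than that of the 87 genes themselves. How the counting divided tags between genes and their copies was not tested.

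Sharing of sequence was examined in the annotated transcripts. Of the 87 genes, 34 had no 75-base window of their last 300 bases in any other gene and 53 had at least 1. Of the 34, 7 fell in KO with DMSO and 13 rose with rimeporide in KO, against 12 and 26 of the 53. Genes that fell in KO with DMSO and had no shared window included Rpl22, Rps13, Rpl13a and Rps27l. The window measure misses some copies, so a gene without a shared window can still have counted pseudogenes. Rps13 had 7 named -ps, with 8.67% of the joint counts. Rpl31, also without a shared window, had 24, with 19.9%. For most genes adding the -ps counts moved the change little. The exceptions with the highest pseudogene share besides Rpl10 were Rpl17 (43.2% of joint counts), Rpl36 (36.4%) and Rps6 (29.8%), none of which passed in either case for KO against WT in DMSO. Rps6 changed by 0.08 alone and by -0.06 ± 0.09 with its pseudogenes (adjusted p = 0.712). Counts with pseudogenes added called 23 genes lower in KO with DMSO and 44 higher with rimeporide in KO.

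**Figure D5:**
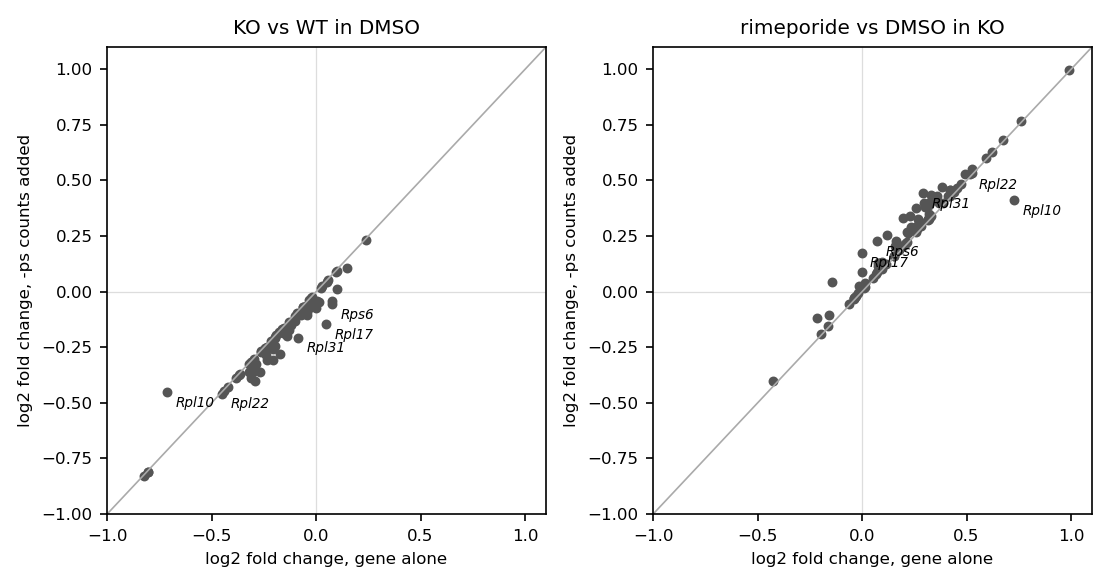
Log2 fold change of each gene alone (horizontal axis) against the change with the counts of its -ps pseudogenes added (vertical axis), for KO against WT in DMSO (left) and rimeporide against DMSO in KO (right). The line marks equal values. Rpl10 lies closer to 0 with its pseudogenes, at -0.45 and 0.41, and most genes lie near the line. On the left, Rpl10 is the only gene above the line. The others lie below it, many of them only just, and Rpl17 moved most, from 0.05 to -0.15.

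Other parts of the translation system were counted in the same fits, and none of these lists was tested against the rest. Over all genes, as above, 8.56% fell and 10.1% rose in KO with DMSO, and 8.43% rose and 6.35% fell with rimeporide in KO. Of the 5 ribosomal protein genes outside the symbol pattern, 3 fell in KO with DMSO and 3 rose with rimeporide in KO. Rack1, a small-subunit scaffold, fell by 0.29 ± 0.09 (adjusted p = 0.0273) and Rps27rt by 0.39 ± 0.14 (adjusted p = 0.0456) in KO with DMSO. How tags were divided between Rps27 and Rps27rt was not tested. With rimeporide in KO, Rps27rt rose by 0.56 ± 0.14 (adjusted p = 0.00924) and Fau by 0.37 ± 0.10 (adjusted p = 0.0184). Of 20 elongation factor and other TOP mRNAs, 3 fell in KO with DMSO and 3 rose with rimeporide in KO, with medians of -0.04 and 0.00. The poly(A)-binding protein gene Pabpc1 fell by 0.33 ± 0.08 (adjusted p = 0.00678) and rose by 0.25 ± 0.08 (adjusted p = 0.0382), and the snoRNA host Gas5 fell by 0.72 ± 0.12 (adjusted p = 0.000113) and rose by 0.35 ± 0.12 (adjusted p = 0.0457). Of 78 mitochondrial ribosomal protein genes, 2 fell in KO with DMSO (median 0.07), and 7 rose and 1 fell with rimeporide in KO (median -0.02).

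Among all genes tested, 8.56% fell and 10.1% rose in KO with DMSO, and 8.43% rose and 6.35% fell with rimeporide in KO. Of 28 initiation factor genes, 3 fell and 1 rose in KO with DMSO, and 4 rose with rimeporide in KO, with medians of 0.05 and 0.01. Eif4a2, an RNA helicase, fell by 0.39 ± 0.07 (adjusted p = 0.000275), and Eif5a, the hypusinated factor, rose with rimeporide in KO by 0.50 ± 0.11 (adjusted p = 0.00591). Of 36 ribosome biogenesis genes, 2 rose and 1 fell in KO with DMSO and 4 fell with rimeporide in KO, and the median of the list was -0.05 in both comparisons. Rrn3, an initiation factor of RNA polymerase I, rose by 0.62 ± 0.17 (adjusted p = 0.0112) in KO with DMSO, and Rrs1, which acts in large-subunit assembly, by 0.57 ± 0.15 (adjusted p = 0.00856). With rimeporide in KO, Rrn3 fell by 0.75 ± 0.17 (adjusted p = 0.00685) and Rrs1 by 0.64 ± 0.15 (adjusted p = 0.00749).

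Of 23 genes of mTORC1 and LARP1 control, 1 rose and 1 fell in KO with DMSO, where 10.1% of all genes tested rose and 8.56% fell. With rimeporide in KO, 1 rose and 3 fell, where 8.43% of all genes tested rose and 6.35% fell. In KO with DMSO, Eif4ebp2, a repressor of cap-dependent translation, rose by 0.61 ± 0.12 (adjusted p = 0.000981) and Rptor, the mTORC1 scaffold, fell by 0.54 ± 0.19 (adjusted p = 0.0456). Larp1 itself changed by -0.05 ± 0.09 (adjusted p = 0.739) and by 0.16 ± 0.09 with rimeporide in KO (adjusted p = 0.265). With rimeporide in KO, Tsc2, which inhibits mTORC1, rose by 0.69 ± 0.21 (adjusted p = 0.0276), and Rraga, which tethers mTORC1 to lysosomes, fell by 0.43 ± 0.11 (adjusted p = 0.0131). Of 15 p53 targets, 2 rose and 1 fell in KO with DMSO. Cdkn1a, the cell cycle inhibitor, fell by 0.45 ± 0.10 (adjusted p = 0.00254), and Sesn1, a stress-induced inhibitor of mTORC1, rose by 0.75 ± 0.10 (adjusted p = 1.17e-05).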

How the data were processed

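Gene counts of 16 libraries were analysed. Per the labels' protocols, a 3' tag kit that adds molecular identifiers was used, with 75-base single-end reads. The authors deposited expected counts per gene, which came from Salmon on GRCm39 per the submitters' processing notes. Software version, annotation release and whether duplicates were removed were not given in the sources read. Of these values 13.7% were not whole, and rounding changed 0.0207% of the total. The deposited log2 CPM values were not used. 

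Counts were tested in R 4.3.3 with edgeR 4.0.16: filterByExpr (minimum count 10, minimum total 15), TMM scaling, and quasi-likelihood fits to all 16 libraries with a mean for each group. There were 7 comparisons, each adjusted over 12272 genes, and all 87 members were tested. Standard errors are the size of the log2 change divided by the root of the F statistic. The labels give 4 biological replicates per genotype and do not say which libraries share a culture. Each genotype has 4 libraries in each medium, so the DMSO and rimeporide libraries could come from the same replicates. The p-values take all 16 libraries as independent and weigh each difference against the spread between libraries. The replicate block joined equal numbers across genotypes as well as media, and a pairing within genotype only was not fitted. Arms of 4 libraries limit the precision.

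Alternatives were DESeq2 1.42.0, relative log expression factors, TMM factors without Rpl and Rps symbols, 2 other filters, added pseudogene counts, a pseudogene covariate, a replicate block and leaving out each library. Named genes were, for each comparison, the 10 members with the smallest p among those that passed (the 3 smallest where fewer than 3 passed), the 5 highest and the 5 lowest members, paralogs, stalk and 5S particle genes and a few others, up to 4 genes of each other list, and the 5 most alike by correlation. The members and all lists were chosen with earlier results of these data known. Some genes that this rule names are not reported here. Larp1 was added to the named genes after its values were seen. Shared windows came from GENCODE M21 transcripts and biotypes from the same annotation. Promoters came from RefSeq. These use GRCm38, not the build of the counts. The fit was tested on simulated counts.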

Additional observations from a re-analysis of the deposited data

Results flagged for a closer look

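In 160 groups of 4 libraries, of 38 named genes and summed shares, 8 had a library whose gap to the nearest of the others exceeded Dixon's critical value for 4 values, relative to the range of the group. By chance about 5 percent of groups, 1 in 20, would be expected to do so. Replicate 4 of WT with DMSO was low for Rps28, at 1163 CPM, for Rpl30, at 1176 CPM, and for the summed share of the 87 genes, at 6.067%. Replicate 3 of KO with rimeporide was high for Rpl30, at 1295 CPM, and for Rps25, at 1294 CPM. Rpl22l1 was high in replicate 2 of KO with DMSO, at 275.4 CPM. Rps23 was low in replicate 2 of WT with DMSO, at 2201 CPM, and Rps14 was low in replicate 1 of WT with DMSO, at 2066 CPM.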

How the results depend on the processing

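With the mean level of the -ps pseudogenes as a covariate, the count of the 87 genes that passed was 3 between genotypes with DMSO, 2 with rimeporide, 0 for the effect of rimeporide in KO and 0 for its average, with Rpl41 in KO turning to -0.0431 (adjusted p = 0.999). That covariate is itself built from copies of these genes and was lowest in KO with DMSO. The median change then fell to -0.01 in DMSO and 0.01 for rimeporide in KO, and the median interaction turned to -0.04. With the replicate block, the counts were 34 for KO against WT in DMSO, 15 for the interaction, 19 for KO averaged and 39 for rimeporide averaged. Same-numbered libraries had correlations of deviations over 0.1 in 11 of 24 pairs (median 0.0745), against 4 of 72 pairs with other numbers (median -0.020), and 11 of 16 libraries correlated best with their own number. Replicate 4 gave 6 of the 11. The highest correlation was between different numbers, at 0.299 for replicate 2 of KO with DMSO and replicate 3 of WT with rimeporide. Among equal numbers the highest was 0.233. Whether equal numbers share a source was not tested. The labels do not say that a number marks a shared culture, so the main fit did not use the numbers as pairs. These correlations do not decide whether the libraries are paired, and if they are, the main fit leaves that pairing out. DESeq2 called 3 in the interaction and 25 for rimeporide averaged, and with no filter the interaction had 8. The cause of these differences was not tested. With pseudogene counts added, the summed shares were 7.23% and 6.41% in WT and KO with DMSO and 7.33% and 7.30% with rimeporide. Leaving out each library gave counts of 9 to 33 for KO against WT in DMSO, 16 to 48 for rimeporide in KO, 0 to 20 for the interaction, 5 to 19 for KO averaged, 0 to 36 for rimeporide averaged, 1 to 1 in rimeporide and 0 to 0 for rimeporide in WT. Of 1080 alternative values for 45 gene and comparison pairs, 933 kept their direction and side of the threshold, 131 were no longer past it, 15 newly passed and 1 changed sign.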

Other observations

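Outside the Rpl and Rps symbols, the 5 genes whose log2 CPM, centred within groups, correlated most with the mean of the 87 over 16 libraries were the pseudogene Gm6278 (r = 0.94), the protein-coding Gm10073 (0.91), Rcbtb2 (0.91), Il18bp (0.91), the gene of a secreted interleukin-18 antagonist, and the pseudogene Gm13192 (0.91). Their mean levels lay between 3.25 and 223 CPM. These are descriptions over libraries that share depth and scaling.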
